A study of Mus musculus with 24 samples.

Results

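The transcripts described here encode the subunits of the oxidative phosphorylation system, with their tissue isoforms and the Ndufaf assembly factors. Members were all genes whose symbol begins with Nduf followed by a, b, c, s or v, with Uqcr, with Cox4, Cox5, Cox6, Cox7 or Cox8, or with Atp5, together with Sdha, Sdhb, Sdhc, Sdhd and Cyc1. This rule used symbols only and no measured value. It gave 94 genes of 21368 genes with a symbol on the array. They comprised 36 genes of complex I, 4 of complex II, 9 of complex III, 18 of complex IV, 17 of complex V, the pair Ndufa4 and Ndufa4l2, and 8 complex I assembly factors. Of 116 symbols in the gene table that match the rule, 22 had no probe that could be named, among them Ndufb1, Ndufb4b and Ndufb4c and many pseudogenes.

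One-colour arrays measured transcript levels in 4 tissues (liver, brain, heart and skeletal muscle) from each of 6 female mice. In KI mice A, B and C, the gene for the telomere protein RAP1 (symbol Terf2ip) carried the I312R point mutation, introduced with CRISPR/Cas9 in the germ line and, as the study describes its KI mice, carried by both alleles, and mice D, E and F were WT littermates. The line had been backcrossed 4 times to C57BL6 per the labels, a strain the study's methods give as C57BL/6N. Mice C and F were aged 14 months and mice A, B, D and E 15 months, so each of the 8 groups of tissue and genotype held 3 mice and each mouse gave all 4 tissues.

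Oxidative phosphorylation couples electron transfer along the inner mitochondrial membrane to ATP synthesis. Complex I and complex II pass electrons from NADH and succinate to ubiquinone, complex III passes them on to cytochrome c, complex IV reduces oxygen, and complex V uses the resulting proton gradient to make ATP. The catalytic core of complex IV is encoded in mitochondrial DNA, and its small nuclear-encoded subunits regulate and stabilise it. Several of these small subunits exist as a form found in most tissues and a form typical of heart and skeletal muscle, which are tissues dense in mitochondria.

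Each level is the processed signal on the log2 scale, less the 75th percentile of its array, so a difference of 1 is a doubling relative to that percentile. A level on this scale depends on the probe as well as on the transcript, so levels are compared between samples for the same gene and never between genes. Marker lists matched the labelled tissues: the mean level of 5 hepatocyte markers was 8.62 to 9.45 in liver, that of 5 neuronal and glial markers 4.76 to 5.14 in brain, that of 5 cardiomyocyte markers 5.98 to 8.67 in heart and that of 5 fast muscle markers 7.07 to 7.69 in muscle. A few samples also held transcripts of other tissues. The liver of KI mouse C had a fast muscle mean of 0.89, against -5.32 to -4.42 in the other livers, and the brain of KI mouse C had a hepatocyte mean of 5.30, against -2.65 to -0.37 in the other brains. In muscle, the mean of 4 slow muscle markers ran from 0.40 to 8.19. These values are set beside the results they touch. For Terf2ip itself, KI minus WT lay between -0.33 (liver) and -0.07 (muscle), with no difference past the threshold.

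Oxidative phosphorylation transcripts were highest in heart and muscle. The median over the 94 members on an array was 7.54 ± 0.23 (SD, n = 6) in heart, 7.52 ± 0.07 (SD, n = 6) in muscle, 6.55 ± 0.10 (SD, n = 6) in liver and 5.51 ± 0.11 (SD, n = 6) in brain. The 6 arrays of liver lay between 6.43 and 6.67, those of brain between 5.40 and 5.66, those of muscle between 7.43 and 7.60 and those of heart between 7.13 and 7.78. Heart and muscle overlapped with each other and with neither of the other tissues. Of the 94 members, 91 were well above background on all 24 arrays, and heart and muscle held the upper places in the order of the 4 tissue means for 81 members. No share of all genes is given for these counts. In whole tissue, more cells rich in mitochondria and more transcript per cell cannot be told apart, and the RNA of heart and muscle was extracted with another kit than that of liver and brain, which cannot be told apart from the tissues.

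**Figure D1:**
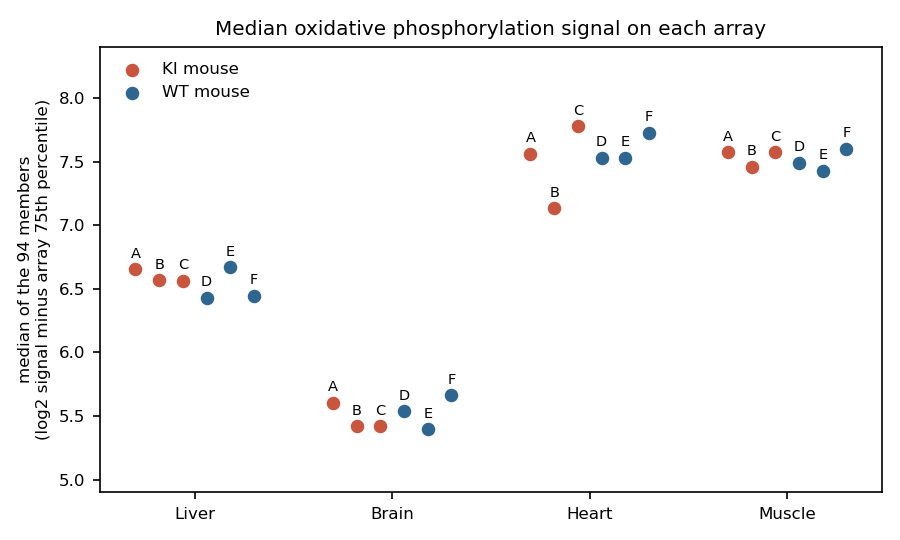
Median level of the 94 oxidative phosphorylation genes on each array, as log2 signal minus the array's 75th percentile, by tissue. Each point is 1 mouse, named by its letter, in red for KI and blue for WT; brain lay between 5.40 and 5.66 and heart between 7.13 and 7.78, with the heart of KI mouse B lowest among hearts. Under quantile normalization the median brain and liver difference changes sign.

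How far apart liver and brain lie depends on the scaling of the arrays, and this holds for the whole family. With the 75th percentile, the median member was lower in brain than in liver by a difference of -1.01, beside a median of -0.19 over all genes tested, whereas after quantile normalization it was 0.14, beside 0.09. Relative to the median of all genes, the members therefore moved from -0.82 to 0.05. The median for heart against liver was 1.02 with the 75th percentile and 1.44 with quantile normalization, beside 0.06 and 0.15 over all genes. The median for muscle against brain was 2.11 and 0.69, beside 0.21 and -0.08. Quantile normalization gives all arrays the same distribution, and the members lie in the upper part of it. Accordingly, the counts of members called in each tissue comparison are followed by those called alike under 4 scalings, namely the 75th percentile, quantile normalization, the normexp background correction and the z-scores deposited by the authors. In the tissue comparisons, shares of all genes are given for the calls on the 75th percentile scale only. Counts under other scalings, within a slide or with the slide as a block have no such share beside them. They show how far the calls held and not an excess over all genes. Values of single genes and of gene lists are on the 75th percentile scale, with another scaling named where it changed the call or the sign of a difference described.

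**Figure D2:**
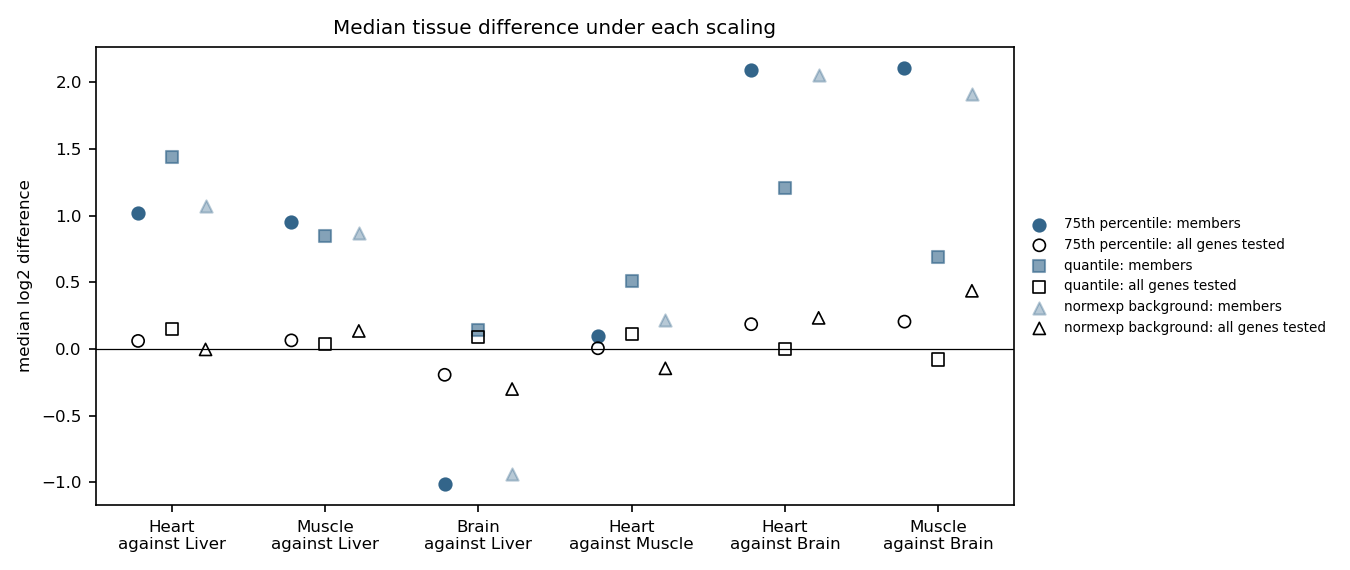
Median log2 difference of the tested members (filled symbols) and of all genes tested (open symbols) in the 6 tissue comparisons, under 3 scalings. Members lay above all genes in every comparison with heart or muscle against liver or brain, and the brain against liver median moved from -1.01 to 0.14 between the 75th percentile and quantile normalization.

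In heart against liver, members were higher in heart across all 5 complexes. Of 92 members tested, 82 were called higher (adjusted p under 0.05, limma over all genes tested), where 41.1% of all genes were, and 5 were called lower, where 38.0% of all genes were. At least 1 log2 unit separated the tissues for 50 of those called higher (27.4% of all genes) and for 2 of those called lower (24.4% of all genes). By complex, 34 of 36 complex I genes, 4 of 4 complex II genes, 8 of 9 complex III genes, 14 of 16 complex IV genes and 15 of 17 complex V genes were called higher. The median difference was 1.15 for complex I, 0.75 for complex II, 0.90 for complex III, 1.05 for complex IV and 1.01 for complex V. Under all 4 scalings 81 members were called higher and 4 lower, and no member was called in opposite directions. Heart and liver shared no slide, and with the slide as a block 76 members were called higher and 4 lower in heart. Brain (mice A and D with the livers) and heart (mice C and F with the muscles) were the only tissues split between slides. The slide terms therefore rest on these tissues, and in heart the split goes with age.

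Skeletal muscle stood in a similar relation to liver. Of 92 members, 77 were called higher in muscle (42.9% of all genes) and 6 lower (40.2%), of which 42 and 3 differed by at least 1 log2 unit (28.6% and 28.0%). Median differences were 1.05 for complex I, 0.63 for complex II, 0.68 for complex III, 0.72 for complex IV and 1.02 for complex V. Under all 4 scalings, 74 were called higher and 4 lower. Liver and muscle lay on separate slides, which were linked only through the brain and heart arrays. With the slide as a block, 58 were called higher, 24 of them by at least 1 log2 unit.

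Heart and muscle, the 2 striated tissues, were close to each other. Of 92 members, 30 were called higher in heart (33.3% of all genes) and 14 lower (34.1%), and only 3 and 1 of them differed by at least 1 log2 unit (17.8% and 13.7%). The median difference was 0.10, and it was 0.51 after quantile normalization, where 80 members were called higher and 2 lower. Normexp gave 41 and 6, the deposited scores 22 and 19, and the arrays of the slide that held both tissues 38 and 1. That slide held all muscles but only the hearts of mice C and F. These were the younger mice, and their hearts had the highest member medians (7.78 and 7.73). Only 22 members were called higher and 2 lower under all 4 scalings, and 10 were called in opposite directions, so no direction is given for the family as a whole.

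Against brain, heart and muscle were higher at nearly every member. In heart against brain, 88 of 93 members were called higher (45.0% of all genes) and 2 lower (35.7%), and 84 were higher by at least 1 log2 unit (29.4%) and 0 lower by as much (25.2%). In muscle against brain, 86 were called higher (46.1%) and 4 lower (37.3%), of which 81 and 4 differed by at least 1 log2 unit (31.3% and 27.5%). All 36 complex I genes, all 4 of complex II, all 9 of complex III and all 17 of complex V were called higher in both comparisons. The members called lower were isoforms of complex IV, namely Cox8a and Cox7b2 in heart, and these with Cox6a1 and Cox6b2 in muscle. Under all 4 scalings, 87 members were called higher and 1 lower in heart than brain, and 77 higher and 3 lower in muscle than brain. In heart against brain, 1 member was called in opposite directions, the complex V gene Atp5c1 (0.66, and -0.18 after quantile normalization). In muscle against brain, 3 members were, namely Atp5c1 (0.50 and -0.69), Cox4i1 (1.56 and -0.18) and Cox7a2l (1.06 and -0.25). The complex V genes called higher under all 4 scalings were thus 16 of 17 in heart and 13 of 17 in muscle. Muscle and brain shared no slide, and with the slide as a block 83 members were called higher and 4 lower in muscle.

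In brain against liver, 83 of 93 members were called lower in brain (46.3% of all genes) and 5 higher (38.9%), of which 48 and 4 differed by at least 1 log2 unit (32.5% and 29.8%). After quantile normalization 22 were called lower and 46 higher. Under all 4 scalings 21 members were called lower and 5 higher, and 38 were called in opposite directions, 18 of them in complex I and 9 each in complexes IV and V. The 21 included 3 of the 4 complex II genes and 4 of 8 assembly factors.

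**Figure D3:**
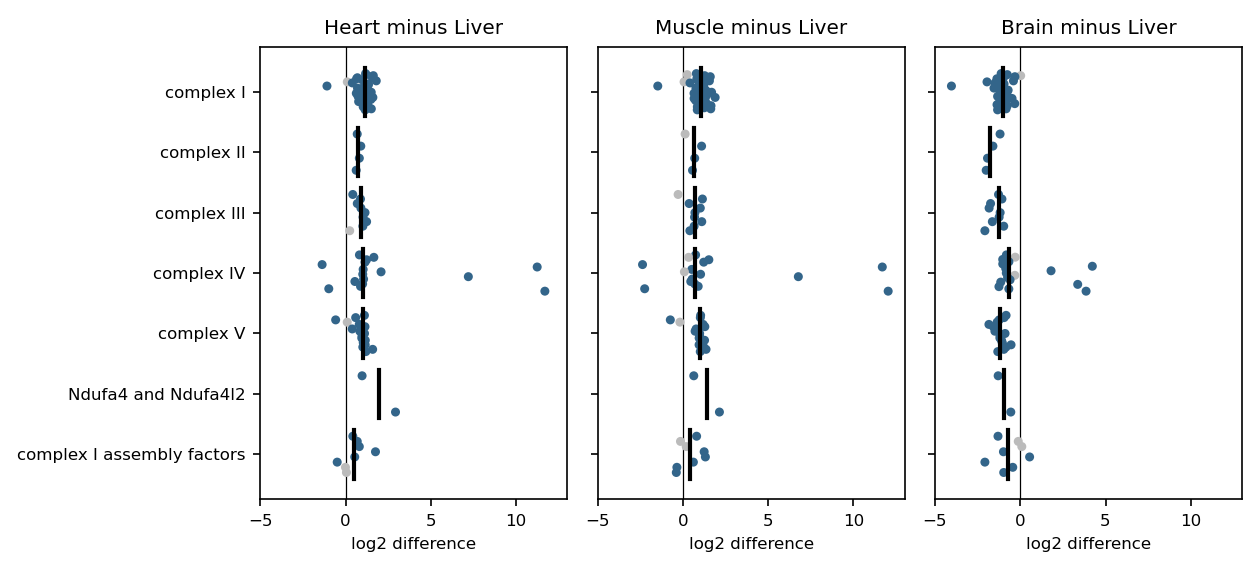
Log2 difference of each tested member between heart, muscle or brain and liver, grouped by complex. Each point is 1 gene (blue if called at an adjusted p under 0.05, grey if not) and the bar is the median of the group; the medians of complex I are 1.15, 1.05 and -1.0, and the points far to the right are complex IV isoforms. The brain panel changes sign for many members under quantile normalization.

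The 4 subunits of succinate dehydrogenase, which is complex II and also an enzyme of the citric acid cycle, were all called lower in brain than liver, and 3 of them under all 4 scalings. Sdhc, an anchor subunit in the membrane, had a level of 3.87 ± 0.08 (SD, n = 6) in brain, 5.79 ± 0.07 in liver, 6.60 ± 0.25 in heart and 6.48 ± 0.11 in muscle. Its brain arrays ran from 3.78 to 4.01 and its liver arrays from 5.67 to 5.87, so the tissues did not overlap. The brain minus liver difference of Sdhc was -1.92 ± 0.10 (SE) and was -0.98 after quantile normalization. Sdhd, the other anchor, differed by -2.0 ± 0.15 (SE) and -0.85 after quantile normalization, and Sdhb, the iron-sulfur subunit, by -1.60 ± 0.11 (SE) and -0.25. Sdha, the flavoprotein that oxidises succinate, differed by -1.18 ± 0.12 (SE), but by 0.00 after quantile normalization. Sdha was also the subunit that separated heart from muscle, by 0.55 ± 0.12 (SE, adjusted p = 0.000523), and its muscle minus liver difference of 0.13 ± 0.12 (SE) was not called, but was after quantile normalization (0.31, adjusted p = 0.00587, limma) and with the deposited scores.

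In complex I, 34 of 36 genes were called higher in heart than liver and 33 in muscle than liver, with a few exceptions. Ndufab1, which encodes the mitochondrial acyl carrier protein that sits in complex I and also serves mitochondrial fatty acid synthesis, was highest in liver. The mean was 2.41 ± 0.20 (SD, n = 6) there, 1.33 ± 0.24 in heart, 0.94 ± 0.23 in muscle and -1.62 ± 0.18 in brain. The lowest liver array stood at 2.16 and the highest array of any other tissue at 1.64. Brain minus liver was -4.03 ± 0.13 (SE, adjusted p = 5.71e-16) and heart minus liver -1.09 ± 0.13 (SE), and both kept their sign and call under quantile normalization (-3.90 and -0.90). Ndufab1 was represented by 1 probe. Ndufa13, an accessory subunit, was lower in heart than muscle by -0.51 ± 0.11 (SE), with a difference of 0.37 after quantile normalization.

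The complex I assembly factors, which help to build the complex and are not part of it, followed the subunits less closely. In heart against liver, 5 of 8 were called higher and 1 lower, with a median of 0.48. Ndufaf4 was highest in heart, at 4.72 ± 0.27 (SD, n = 6) against 2.96 ± 0.26 in liver. Ndufaf6 was highest in muscle, at 3.33 ± 0.23 (SD, n = 6), against 2.23 ± 0.24 in heart, 2.72 ± 0.19 in liver and 0.65 ± 0.11 in brain, and its heart minus muscle difference of -1.10 ± 0.12 (SE) was -0.90 after quantile normalization. Ndufaf5 was also lower in heart than muscle, by -0.78 ± 0.18 (SE), with overlapping ranges. Ndufaf7 had the smallest difference among members called higher in heart than brain, at 0.43 ± 0.09 (SE).

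In complex III, Cyc1, the cytochrome that hands electrons to cytochrome c, had a level of 7.02 ± 0.26 (SD, n = 6) in heart, 6.59 ± 0.16 in liver, 6.31 ± 0.20 in muscle and 5.32 ± 0.18 in brain. It was higher in heart than muscle by 0.70 ± 0.13 (SE, adjusted p = 0.000105), whereas muscle minus liver, at -0.28 ± 0.13 (SE), was not called; with normexp it was (-0.42, adjusted p = 0.00766, limma). Uqcrq, a small subunit, was among the members lowest in brain against liver, at -2.07 ± 0.14 (SE), and -0.79 after quantile normalization.

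In complex V, the c subunit of the rotor is encoded by Atp5g1, Atp5g2 and Atp5g3, whose mature products are the same protein. All 3 were called higher in heart and muscle than in liver. Heart minus liver was 1.14 ± 0.11 (SE) for Atp5g1, 0.39 ± 0.09 (SE) for Atp5g2 and 0.84 ± 0.13 (SE) for Atp5g3. Within mice, Atp5g1 gained on the Atp5g2 probe used by 0.75 ± 0.11 (SD, n = 6 mice) from liver to heart and by 0.51 ± 0.22 (SD, n = 6 mice) from liver to muscle, in all mice. The size of this gain depends on the probe. The other probe of Atp5g2 gave a heart minus liver difference of 0.63, against 0.39 at the probe used. Its muscle minus liver difference was 1.24, against 0.78, and the gain was not computed with that probe. Atp5c1, a stalk subunit, was called lower in heart than liver (-0.58), which was -0.04 and not called after quantile normalization, and the gene's other probe differed by 1.63, so the 2 probes of Atp5c1 disagree. Among 24 members with a further probe, the sign of heart against liver disagreed for 2 (Atp5c1 and Ndufv3), that of brain against liver for 0, and that of heart against muscle for 6.

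The tissue isoforms of complex IV gave the widest differences of the family. Cox6a2, the heart and muscle form of subunit VIa, stood at 9.50, 9.07 and 9.52 in the hearts of KI mice A, B and C and at 9.26, 9.26 and 9.66 in the WT hearts of D, E and F. In muscle the same mice gave 10.01, 9.77 and 9.81 (KI) and 9.77, 9.98 and 9.65 (WT), and in brain 2.13, 2.62 and 2.19 (KI) and 2.45, 2.12 and 2.70 (WT). Their livers gave -2.41, -2.98 and 2.10 (KI) and -2.63, -2.56 and -2.67 (WT). No array of heart or muscle overlapped with liver or brain, and the liver of KI mouse C, which carried fast muscle transcripts, stood apart from the other 5. Heart minus liver was 11.24 ± 0.55 (SE, adjusted p = 5.37e-13), and 12.03 ± 0.15 (SE) without that liver. Brain minus liver was 4.23 ± 0.55 (SE, adjusted p = 6.92e-07), and 5.03 ± 0.15 (SE) without it. Heart and muscle differed by -0.45 ± 0.55 (SE), which was not called.

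Cox8b, the striated muscle form of subunit VIII, ran in parallel. It stood at 8.45, 8.04 and 8.58 in KI hearts and 8.38, 8.49 and 8.52 in WT hearts, and between 8.72 and 8.83 in all 6 muscles. Brains gave 0.30, 0.03 and 1.86 (KI) and 0.73, 0.27 and 0.31 (WT), with the sample of KI mouse C highest. That brain carried hepatocyte transcripts, but every liver except that of mouse C lay below every brain for Cox8b. The part of other tissues in that brain's value was not tested. Livers gave -4.77, -3.74 and 0.83 (KI) and -3.64, -4.41 and -3.93 (WT), well above background on 4 of 6 arrays (not in KI mouse A or WT mouse E), and the highest value was again the liver of mouse C. Differences from liver therefore rest in part on values at background and depend on how it is subtracted. Heart minus liver was 11.69 ± 0.61 (SE) and muscle minus liver 12.03 ± 0.61 (SE), and without that liver 12.53 ± 0.27 (SE) and 12.88 ± 0.27 (SE). With normexp they were 10.50 and 10.74. Brain minus liver was 3.86 ± 0.61 (SE) with overlap of that liver and the brains, 4.71 ± 0.27 (SE) without it and 2.72 with normexp. The part of the muscle transcripts in the values of that liver was not tested.

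Cox7a1, the striated muscle form of subunit VIIa, ranged from 8.85 to 9.35 in heart and from 8.55 to 8.81 in muscle, against 1.19 to 2.34 in liver and 1.28 to 1.80 in brain. Heart minus liver was 7.20 ± 0.17 (SE, adjusted p = 1.74e-17) and muscle minus liver 6.77 ± 0.17 (SE), and liver and brain overlapped, with a difference of -0.31 ± 0.17 (SE) that was not called. The liver of KI mouse C, at 2.34, was the highest liver for this gene too, but stood only 0.13 above the next, that of WT mouse D at 2.21. Heart exceeded muscle by 0.43 ± 0.17 (SE, adjusted p = 0.0291), a call that was lost without the heart of mouse C or F or the muscle of mouse A, D or E, with differences between 0.37 and 0.49 over all arrays left out in turn. The difference was 1.14 after quantile normalization and 0.62 with normexp, and it was not called with the deposited scores (adjusted p = 0.123, limma).

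The forms of these subunits found in most tissues did not mirror each other. Cox6a1 was lowest in muscle and highest in liver, at 6.77 ± 0.46 (SD, n = 6) in muscle, 7.77 ± 0.17 in heart, 8.11 ± 0.20 in brain and 9.14 ± 0.29 in liver. Heart minus liver was -1.37 ± 0.18 (SE) and muscle minus liver -2.36 ± 0.18 (SE, adjusted p = 3.8e-10). Cox8a showed the same order, at 6.06 ± 0.30 (SD, n = 6) in muscle, 7.32 ± 0.10 in heart, 7.63 ± 0.16 in brain and 8.30 ± 0.19 in liver, and the muscle minus liver difference of -2.24 ± 0.13 (SE) was -3.16 at its other probe. Heart exceeded muscle by 0.99 ± 0.18 (SE) for Cox6a1 and by 1.26 ± 0.13 (SE) for Cox8a. These directions held under all scalings tried, whereas brain minus liver, at -1.02 for Cox6a1 and -0.67 for Cox8a, turned to 0.49 and 0.79 after quantile normalization. In contrast, Cox7a2 was higher in heart than liver by 1.06 ± 0.12 (SE) and in muscle than liver by 0.55 ± 0.12 (SE), like most other members; with the slide as a block, the muscle difference of 0.41 was not called (adjusted p = 0.184).

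**Figure D4:**
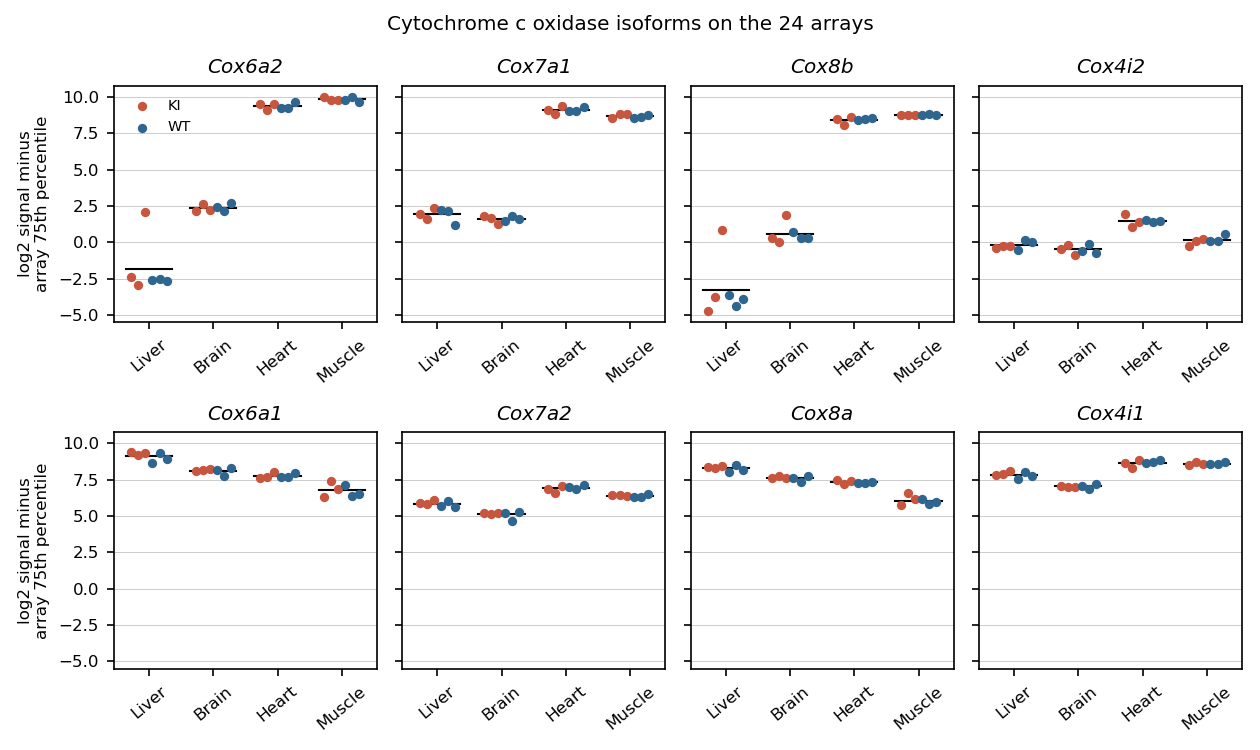
Levels of 4 isoform pairs of complex IV on the 24 arrays (log2 signal minus the array's 75th percentile), with the striated muscle forms and Cox4i2 in the upper row and the more widely found forms in the lower row. Points are mice (KI red, WT blue) and bars are tissue means; Cox6a2 stood at 9.07 or more in heart and muscle and at 2.70 or less in liver and brain, while Cox6a1 and Cox8a were lowest in muscle.

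The shift of an isoform pair within an array does not depend on a constant scaling of that array. From liver to heart, Cox6a2 gained on Cox6a1 by 12.61 ± 1.90 (SD, n = 6 mice), Cox8b on Cox8a by 12.67 ± 1.97 (SD, n = 6 mice) and Cox7a1 on Cox7a2 by 6.14 ± 0.39 (SD, n = 6 mice). From liver to muscle, the gains were 14.05 ± 1.98, 14.27 ± 2.14 and 6.22 ± 0.35 (SD, n = 6 mice). The liver of KI mouse C, which carried fast muscle transcripts, widened the first 2 spreads. Cox6a2 over Cox6a1 was -7.26 there, against -12.15 to -11.31 in the other livers, and Cox8b over Cox8a -7.62, against -13.11 to -11.64. Without mouse C these gains were 13.37 and 13.43 to heart and 14.82 and 15.08 to muscle. The shifts of Cox8b from liver include the livers at background, and with normexp they were 11.46 and 13.09. Cox6a2 over Cox6a1 was thus lower in heart than muscle by -1.45 ± 0.43 (SD, n = 6 mice) and Cox8b over Cox8a by -1.61 ± 0.26 (SD, n = 6 mice), with no overlap of the heart and muscle arrays, while Cox7a1 over Cox7a2 shifted by -0.08 ± 0.12 (SD, n = 6 mice), with overlap, and by 0.32 after quantile normalization. Of the 4 genes behind the former shifts, Cox6a1 and Cox8a were called higher in heart than muscle, and Cox6a2 and Cox8b were not called apart. No heart or muscle array, KI or WT, overlapped with a liver or brain array in any of these 3 pairs.

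Among muscles, Cox6a1 and Cox8a varied between mice, with ranges of the arrays that did not follow the genotype. Cox6a1 stood at 6.28, 7.43 and 6.86 in the muscles of KI mice A, B and C and at 7.16, 6.38 and 6.52 in the WT muscles of D, E and F. Cox8a stood at 5.76, 6.58 and 6.14 (KI) and at 6.14, 5.80 and 5.94 (WT). Mouse B was highest and mouse A lowest for both genes. The mean of the 4 slow muscle markers in the same order of mice was 0.40, 8.19 and 3.44 in KI and 5.36, 0.92 and 6.57 in WT, and that of 4 brown fat markers was -2.58, 2.01 and -0.40 in KI and 2.18, -0.79 and -2.07 in WT. Mouse B thus held the highest slow muscle mean and mouse A the lowest, and mice B and D held the highest brown fat means. The muscle of mouse B was also highest for 4 of 4 mammary epithelium markers, with a mean of -1.48 against -5.31 to -5.15 in the other muscles. Of these, Wfdc18 stood at 2.5 against -6.22 to -5.94 and the milk protein gene Csn2 at -1.0 against -6.15 to -5.88. The part of fibre type, fat or mammary tissue in these values was not tested.

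The promoters of Cox7a1 and Cox8b, striated muscle forms, and of their partners Cox7a2 and Cox8a are shown because these pairs shifted between the tissues. The sequences are RefSeq's on the build GRCm38.p6, for a short window around the start of each gene, and 76 of the 94 members had an entry. Capitals mark matches on either strand to the motifs of nuclear respiratory factor 1 (GCATGCGC), estrogen-related receptors (TCAAGGTCA), Sp1 (GGGCGG), GABP (CCGGAAG) and YY1 (AAGATGGCG), none of which overlaps another in these windows.
Cox7a1, chr7:30183921-30184220, plus strand: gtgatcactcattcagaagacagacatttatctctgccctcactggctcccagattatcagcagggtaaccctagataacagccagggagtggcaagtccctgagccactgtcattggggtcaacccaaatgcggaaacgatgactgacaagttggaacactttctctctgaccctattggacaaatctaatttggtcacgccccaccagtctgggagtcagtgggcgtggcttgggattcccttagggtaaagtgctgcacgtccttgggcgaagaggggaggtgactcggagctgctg
Cox7a2, chr9:79759804-79760103, minus strand: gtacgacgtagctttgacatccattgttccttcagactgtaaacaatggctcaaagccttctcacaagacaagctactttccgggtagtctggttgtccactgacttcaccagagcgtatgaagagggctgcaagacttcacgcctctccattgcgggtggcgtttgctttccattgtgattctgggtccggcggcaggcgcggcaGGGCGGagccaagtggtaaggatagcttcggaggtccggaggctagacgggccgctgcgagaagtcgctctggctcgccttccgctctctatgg
Cox8b, chr7:140900397-140900696, minus strand: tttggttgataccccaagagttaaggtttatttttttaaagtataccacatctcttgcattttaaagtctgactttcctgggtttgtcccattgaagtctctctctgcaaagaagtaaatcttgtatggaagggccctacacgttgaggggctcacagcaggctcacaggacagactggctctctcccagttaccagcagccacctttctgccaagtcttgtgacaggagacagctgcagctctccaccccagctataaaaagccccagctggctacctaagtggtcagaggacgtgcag
Cox8a, chr19:7217567-7217866, minus strand: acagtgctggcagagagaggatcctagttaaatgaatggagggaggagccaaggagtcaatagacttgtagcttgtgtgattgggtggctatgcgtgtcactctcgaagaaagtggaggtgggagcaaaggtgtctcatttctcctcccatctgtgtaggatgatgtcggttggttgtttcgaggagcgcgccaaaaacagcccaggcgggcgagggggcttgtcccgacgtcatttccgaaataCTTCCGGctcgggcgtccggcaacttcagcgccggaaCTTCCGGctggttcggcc
The windows of Cox7a1 and Cox8b held 0 matches to these 5 motifs, that of Cox7a2 held 1 Sp1 match and that of Cox8a held 2 GABP matches. The window of Cox6a1 held 2 overlapping matches of nuclear respiratory factor 1, 2 of Sp1 and 1 of GABP. The striated muscle forms also had fewer CpG dinucleotides, with 7 in Cox7a1 and 2 in Cox8b, against 20 in Cox7a2, 19 in Cox8a and 32 in Cox6a1. The E box (CANNTG), which is bound by muscle transcription factors among others, matched 1 time in Cox7a1, 2 times in Cox8b and 1 time each in Cox7a2 and Cox8a. These are matches of letters in a window and not sites.

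Over the 76 members with a promoter, the motif of nuclear respiratory factor 1 was found in 15.8%, against 3.05% of 27025 genes of the table, that of GABP in 25% against 9.93%, that of YY1 in 10.5% against 1.64%, that of Sp1 in 46.1% against 38.2%, that of the estrogen-related receptors in 2.63% against 0.466% and the E box in 71.1% against 75%. The members' windows had a median of 19.5 CpG dinucleotides and those of all genes 7. The part of base composition in these shares was not tested. By complex, GABP matched 6 of 15 windows of complex V and 4 of 32 of complex I, and YY1 matched 5 of 32 of complex I and 0 of 13 of complex IV.

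The other isoforms of complex IV and its partners had narrower ranges. Cox4i2, the form of subunit IV linked to low oxygen, was highest in heart, at 1.45 ± 0.29 (SD, n = 6), against 0.13 ± 0.27 in muscle, -0.21 ± 0.26 in liver and -0.50 ± 0.29 in brain. Its heart arrays began at 1.04 and those of all other tissues ended at 0.56, and heart minus muscle was 1.32 ± 0.17 (SE, adjusted p = 1.71e-06). Cox4i1, the main form, followed the general pattern, with a heart minus liver difference of 0.82 ± 0.10 (SE) and a brain minus liver difference of -0.81 that was 0.67 after quantile normalization.

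Cox6b2, known from testis, was higher in heart and brain than in liver and muscle. It stood at 0.47 ± 0.34 (SD, n = 6) in heart, 0.19 ± 0.35 in brain, -1.53 ± 0.57 in muscle and -1.62 ± 0.13 in liver. Heart minus muscle was 1.99 ± 0.22 (SE, adjusted p = 3.13e-07) and brain minus liver 1.81 ± 0.22 (SE, adjusted p = 3.91e-07), while heart and brain, and muscle and liver, were not called apart. In muscle, the sample of KI mouse B again stood apart, at -0.47 against -2.06 to -1.35. This sample held the highest slow muscle mean (8.19) as well as mammary transcripts, and the part of either was not tested. Cox6b1, the general form, was higher in heart than liver by 1.03 ± 0.12 (SE).

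Cox7b2, another testis form, was close to background. Its probe was well above background on all 6 brain arrays, on 3 heart arrays and on 0 liver or muscle arrays. Brain levels ran from -3.79 to -3.16, and brain was at least 2.44-fold higher than liver (adjusted p = 1.72e-08) and at least 1.47-fold higher than muscle (adjusted p = 8.61e-07). These bounds hold for the processed signal only. After the normexp correction brain minus liver of Cox7b2 was 0.51 on the log2 scale (adjusted p = 0.0218, limma), which is below the bound, muscle minus brain was 0.14 (adjusted p = 0.509, limma) and heart minus brain was -0.08 (adjusted p = 0.727, limma), so neither of the latter was called. Cox8c, the testis form of subunit VIII, was well above background on 0 arrays and was not tested, and Cox7b and Cox7a2l followed the general pattern, with heart minus liver differences of 1.00 ± 0.10 (SE) and 0.55 ± 0.10 (SE). The third and dimmest of the probes of Cox7a2l gave -0.59 for that difference.

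Ndufa4, now assigned to complex IV, and Ndufa4l2, its paralog known from the response to low oxygen, were both highest in heart. Ndufa4l2 stood at 3.22, 2.78 and 3.63 in KI hearts and 3.45, 3.23 and 3.53 in WT hearts, at 1.95 to 3.12 in muscle, at -0.07 to 1.00 in liver and at -0.39 to -0.02 in brain. Heart minus liver was 2.93 ± 0.19 (SE, adjusted p = 3.88e-11) for Ndufa4l2 and 0.97 ± 0.11 (SE) for Ndufa4. Muscle minus liver was 2.14 ± 0.19 (SE) and 0.64 ± 0.11 (SE). Ndufa4l2 gained on Ndufa4 from brain to heart by 1.22 ± 0.12 (SD, n = 6 mice), in all mice. Heart exceeded muscle by 0.79 ± 0.19 (SE, adjusted p = 0.00124) for Ndufa4l2, with overlapping ranges.

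Lists of related genes gave a setting for these differences, beside 41.1% of all genes called higher and 38.0% called lower in heart than liver, and 42.9% and 40.2% in muscle than liver. Of 13 citric acid cycle genes, 11 were called higher in heart than liver and 1 lower, with a median of 1.58, and 11 higher and 2 lower in muscle than liver, with a median of 1.5. Under all 4 scalings the counts were 11 and 1 in heart and 10 and 1 in muscle. The genes called lower belong to succinyl-CoA synthetase. Suclg2, the subunit of its GTP-forming type, differed by -1.82 in heart and -2.96 in muscle, and Suclg1, the subunit shared by both types, by -0.34 in muscle (adjusted p = 0.0345, limma), which was -0.12 and not called after quantile normalization.

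Of 43 further assembly factors tested, 18 were called higher and 15 lower in heart than liver, with a median of 0.04, beside the median of 1.02 over the members, and 17 and 10 were called so under all 4 scalings. In brain against liver, 34 of 43 were called lower (46.3% of all genes) and 4 higher (38.9%), with a median of -1.23. After quantile normalization 28 were called lower and 8 higher, with a median of -0.81, and under all 4 scalings 27 and 2.

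Of 14 regulators of mitochondrial gene expression, 8 were called higher and 3 lower in heart than liver, and 10 higher and 2 lower in muscle than liver. Under all 4 scalings 8 and 0 were in heart and 9 and 2 in muscle. Ppargc1a, the coactivator PGC-1 alpha, differed by 2.81 in heart and 1.41 in muscle, and Esrra, an estrogen-related receptor that works with it, by 2.15 and 2.16. Tfam, which packages mitochondrial DNA and activates its transcription, differed by -0.47 in heart, which was -0.11 and not called after quantile normalization, and by -0.22 in muscle, which was not called but was with normexp (-0.38, adjusted p = 0.0112, limma).

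Among the carriers and partners of the chain, 8 of 11 were called higher and 2 lower in heart than liver, and as many in muscle than liver; under all 4 scalings the counts were 8 and 1 in both. The adenine nucleotide translocases, which exchange ADP and ATP across the inner membrane, formed a further pair with opposite directions. Slc25a4, the heart and muscle form, was higher than in liver by 5.57 in heart and 6.41 in muscle, and Slc25a5, a form of dividing and many other cells, differed by -0.82 and -3.41. Cycs, the electron carrier cytochrome c, was higher by 2.19 in heart and 1.85 in muscle.

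The comparison of KI with WT mice within each tissue asked whether the RAP1 mutation goes along with other levels of these transcripts. No member passed the threshold in any tissue, nor did any gene on the array (limma, 0% of 13514 genes in muscle, 0% of 14928 in heart, 0% of 16068 in brain and 0% of 14085 in liver). At an unadjusted p under 0.05, 1 of 91 members was found in liver (11.7% of all genes), 0 of 93 in brain (0.790%), 0 of 92 in heart (1.60%) and 0 of 92 in muscle (0.829%). KI and WT arrays did not overlap for 8 liver members with KI higher (12.8% of all genes) and 1 with KI lower (7.04%), for 1 and 0 in brain (1.43% and 1.40%), for 0 and 1 in heart (1.91% and 2.93%), and for 2 and 0 in muscle (2.27% and 1.33%).

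The liver member was Uqcrc1, a core subunit of complex III. Its level was 5.05 in mouse A, 5.36 in mouse B and 5.35 in mouse C, which are KI, and 5.73, 5.64 and 5.67 in WT mice D, E and F. All 3 KI livers lay below all 3 WT livers, and KI minus WT was -0.43 ± 0.13 (SE), with an unadjusted p of 0.0160 and an adjusted p of 0.397 (limma). In brain Uqcrc1 was also the member of smallest p, with levels of 4.32, 4.12 and 3.99 (KI) and 4.31, 4.69 and 4.31 (WT), and here the groups overlapped (-0.29 ± 0.17, SE, adjusted p = 1.00 in limma). In heart and muscle the groups overlapped as well. With the 4 tissues of a mouse averaged, Uqcrc1 differed by -0.19 ± 0.08 (SE), with an unadjusted p of 0.0519 and an adjusted p of 0.986 (limma), while 3.50% of all genes and 0 of 93 members had an unadjusted p under 0.05.

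Next in liver by p were Ndufaf1, an assembly factor, and Cox7a2l, which takes part in joining complexes III and IV. KI livers averaged 3.57 ± 0.03 (SD, n = 3) for Ndufaf1 against 3.27 ± 0.16 for WT livers, and 6.62 ± 0.10 for Cox7a2l against 6.33 ± 0.14. The adjusted p values were 0.427 and 0.433 (limma). The median over the liver members was 0.13, with 77 of 91 above 0, beside a median of 0.05 over all genes, and it was 0.03 after quantile normalization. The share of all genes above 0 is not given. Without the liver of WT mouse E, which had the highest member median of the WT livers (6.67 against 6.43 and 6.44), 20 of 92 members reached an unadjusted p under 0.05 (13.9% of all genes) and the median was 0.22, beside 0.04 over all genes. Without the liver of WT mouse D, 2 of 91 members did (10.0% of all genes). The widest KI minus WT difference of the liver was that of Cox6a2, at 1.52 ± 1.26 (SE), and it was -0.07 ± 0.20 (SE) without the liver of KI mouse C.

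In heart, 89 of 92 members were lower in KI than WT mice, by a median of -0.12 beside -0.05 over all genes, yet none reached an unadjusted p under 0.05. For this count and the ranks of single hearts below, no share of all genes is given. The heart of KI mouse B was the lowest of the 6 hearts for 91 of the 94 members, with a member median of 7.13 against 7.53 to 7.78 in the others, and without it the median KI minus WT difference was 0.06, beside -0.01 over all genes. The same sample had the highest means of 3 white fat markers (-1.42 against -4.35 to -3.11) and of 3 macrophage markers (2.09 against 1.34 to 1.64). Its mean of the cardiomyocyte list was also highest (8.67 against 5.98 to 7.88), but the list was split. The atrial genes Nppa (9.24) and Myl7 (7.65) were highest in this heart. Tnni3 (8.23) and Myl3 (9.26) were lowest there among the 6 hearts, while Myh6 (8.95) lay within the range of the others. The part of these transcripts in the lower member levels was not tested. The hearts of mice C and F, which lay on another slide than the other 4 and came from the younger mice, had the highest member medians (7.78 and 7.73), and 45 and 36 members respectively were highest there. Slide and age cannot be told apart in heart.

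Cox6b2 and Ndufs8 were among the heart members of smallest p. Cox6b2 stood at 0.91, 0.89 and 0.22 in KI and 0.29, 0.31 and 0.19 in WT hearts, with overlap (adjusted p = 0.978, limma). Without the heart of KI mouse C, 4 of 92 members reached an unadjusted p under 0.05, where 6.44% of all genes did.

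In brain the member median was 0.01 beside -0.02 over all genes, and in muscle 0.02 beside 0.03. The brain members of smallest p after Uqcrc1 were Ndufv2 (-0.27 ± 0.23, SE) and Ndufb2 (-0.52 ± 0.44, SE), and Ndufb2 differed by 0.02 without the brain of KI mouse B. In muscle they were Ndufb3 (0.27 ± 0.21, SE), Atp5h (0.18 ± 0.14, SE) and Atp5j (-0.19 ± 0.18, SE), none below an adjusted p of 1.00 (limma). For Cox6a2, where it is abundant, KI minus WT was -0.03 ± 0.19 (SE) in heart and 0.06 ± 0.17 (SE) in muscle. These values do not show that the genotypes were alike, and 3 arrays per group limit the precision.

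**Figure D5:**
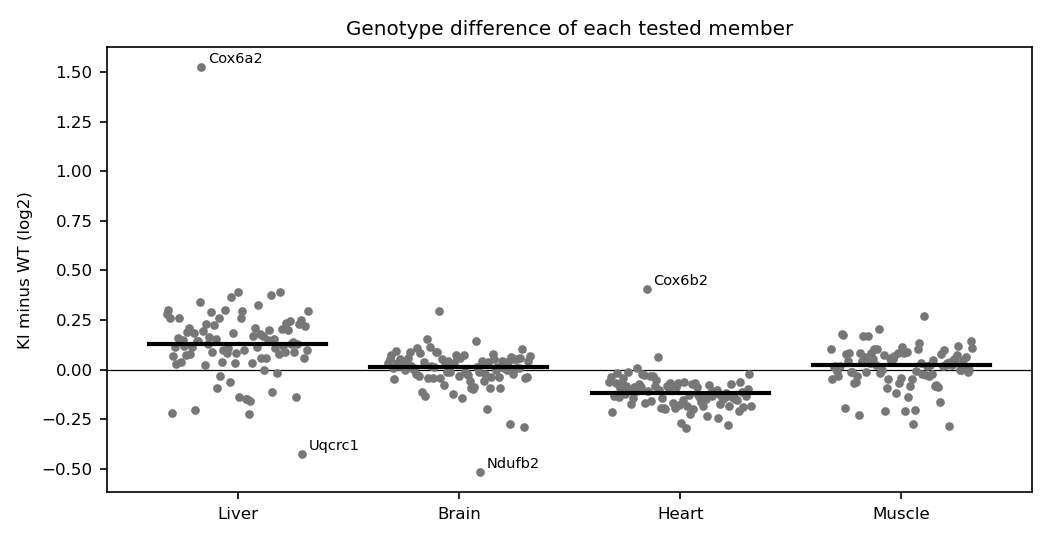
KI minus WT difference (log2) of each tested member in the 4 tissues, 3 mice per genotype. Points are genes and bars are medians (0.13 for liver, 0.01 for brain, -0.12 for heart and 0.02 for muscle); Cox6a2 in liver stands apart at 1.52 with the liver of KI mouse C and is -0.07 without it.

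Whether the genotype difference varied between tissues was asked with a moderated F-test over all arrays. No member passed, and 0 of 93 members had an unadjusted p under 0.05, where 1.84% of all 17296 genes did (limma). Ndufaf1 ranked first among the members, with an adjusted p of 1.00 (limma). Without the 4 arrays of WT mouse E, 3 of 93 members reached an unadjusted p under 0.05 (3.64% of all genes), and without the 4 arrays of KI mouse C, 1 of 93 did (3.55% of all genes).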

How the data were processed

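Per the labels and file headers, the authors labelled total RNA with Cy3, hybridised 1 Agilent array per sample and extracted the deposited intensity values with Feature Extraction 12.0.3.1; the processed signal is background-corrected and not normalized between arrays. The authors also deposited a score table, found here to hold z-scores of the log signal within each array and used only as an alternative. RNA came from RNeasy Mini kits for liver and brain and from the fibrous tissue kit for heart and muscle.

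Control spots were removed, as were 121 to 347 outlier spots on an array, and repeated spots averaged, giving 55681 probes. Values are log2 of the processed signal minus the array's 75th percentile over probes, which lay at a signal of 269.5 to 2198; no spot was saturated. Well above background were 49.4% to 68.4% of probes. Depth has no meaning for arrays, and 3 arrays per group limit the precision. Symbols came from accessions and the RefSeq table of GRCm38.p6 (50.9% of probes, and 99.0% of those with a curated mRNA accession), and the probe of highest mean stood for a gene. Many members have near-identical pseudogenes, which a probe may also detect.

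Tests covered genes detected well above background on every array of a group compared. limma 3.58.1 in R 4.3.3 fitted all 24 arrays for tissues (genotypes averaged), 6 arrays per tissue for genotype, the 4-tissue means of the 6 mice, and an F-test of the interaction; tests were two-sided, with Benjamini-Hochberg adjustment over all genes tested and a threshold of 0.05. The tests were checked on simulated data. A bound on a fold sets each array of a group with no detection at the higher of its value and the lowest signal well above background. Arrays were taken to come from the same mouse where their titles held the same number. Deviations of such arrays from their group means correlated by 0.0198 on average over 11668 genes, against -0.00886 for other mice of the same genotype. The consensus correlation was -0.00213. The members and lists were chosen with earlier results of these data known. Named were the isoform sets, the 3 largest and 3 smallest called differences per tissue comparison, the 3 smallest p per genotype comparison (1 of these in heart is not reported here), Sdha to Sdhd and Cyc1; Atp5c1, Ndufaf4 and genes of the lists were named after their values were seen. Python 3.11.15, pandas 2.3.3, numpy 2.4.6 and matplotlib 3.10.9 made the tables and plots.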

Additional observations from a re-analysis of the deposited data

How the results depend on the processing

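The 125 results gave 2248 values under alternatives, of which 2142 kept direction, call and size, 74 moved, 24 lost their call and 8 reversed. The cause was not tested. Quantile normalization moved most. For brain against liver it gave 46 members higher and 22 lower, 7 and 2 of them by at least 1 log2 unit, and turned the median to 0.14 and Cox6a1 to 0.49, Cox8a to 0.79, Cox7a2 to 0.47 and Cox4i1 to 0.67. For heart against muscle it gave 80 and 2, 7 and 0 by at least 1 log2 unit, and a median of 0.51. The medians became 1.44 for heart against liver, with 1 member lower by at least 1 log2 unit, 1.21 for heart against brain, with 4 lower and 3 by at least 1 log2 unit, and 0.69 for muscle against brain, with 9 lower, 28 higher by at least 1 log2 unit and Cox4i1 at -0.18. The liver genotype median became 0.0327. Isoform shifts became -0.83 (Cox6a2 over Cox6a1) and -1.18 (Cox8b over Cox8a) from muscle to heart and 3.03 for the latter from liver to brain; Cox7a1 over Cox7a2 became 5.55 from liver to muscle, -0.53 from liver to brain and 0.32 from muscle to heart; Cox4i2 over Cox4i1 became 0.42 from liver to heart, -0.16 from liver to muscle, -1.0 from liver to brain and 0.59 from muscle to heart. The second Cox8a probe gave -2.34 from muscle to heart.

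With normexp, heart against muscle had 6 members lower, 5 higher and 0 lower by at least 1 log2 unit, and the muscle against brain median was 1.91. With the slide as a block, heart against muscle had 2 lower, 7 higher and 0 lower by at least 1 log2 unit, muscle against liver had 24 higher by at least 1 log2 unit and a median of 0.73, muscle against brain had a median of 1.84, heart against brain had 0 lower, and 2 heart members reached an unadjusted p under 0.05 for genotype. Within 1 slide, with only the hearts of mice C and F, heart against muscle had 1 lower, 7 higher and 0 lower by at least 1 log2 unit. With a filter in both tissues, brain against liver had 3 higher, 2 by at least 1 log2 unit, and heart against brain 1 lower. With WT arrays only, heart against muscle had 3 lower, heart against liver 1 lower by at least 1 log2 unit and heart against brain 0 lower. With KI arrays only, heart against muscle had 8 higher and 4 lower, heart against liver 32 higher by at least 1 log2 unit and heart against brain 0 lower.

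For genotype in liver, 2 members reached an unadjusted p under 0.05 with normexp and with a trended robust fit, and 3 with a 24-array fit. In the 4-tissue mean, 1 did with quantile normalization and with normexp. The replicate block (mouse, which pairs tissues and not genotypes) left 107 of 109 results the same; the exceptions were 3 liver members and 1 member of the 4-tissue mean at an unadjusted p under 0.05 in 24-array fits with the block. Leaving out 1 array in turn gave 3 to 6 members higher in heart than muscle by at least 1 log2 unit (6 without the heart of KI mouse B), 0 to 2 lower in heart than brain (below 2 without the brain of mouse A, B, D or F or the heart of B, E or F) and 0 to 1 by at least 1 log2 unit. It gave 1 to 20 liver members (20 without WT mouse E) and 0 to 4 heart members (4 without KI mouse C) at an unadjusted p under 0.05. Leaving out 1 mouse with its 4 arrays in turn gave 0 to 3 in the F-test (3 without WT mouse E). KI minus WT of Ndufb2 in brain ran from -0.80 to 0.0207 (without KI mouse B). The deposited scores are in other units and gave calls only.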
